A study of Mus musculus with 6 samples.

Results

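NMDA receptors are glutamate-gated channels of excitatory synapses, and 7 genes encode their subunits in the mouse. Grin1, Grin2a, Grin2b, Grin2c, Grin2d, Grin3a and Grin3b were taken by symbol from a table of 56748 genes, and all 7 were present. They were followed in 6 libraries of mouse brain, 3 from animals given saline and 3 from animals given PLEA nanoparticles. The donors were male wild-type C57 mice, and the labels give no age. Every animal, controls included, had a photothrombotic stroke of the left hemisphere, in which light clots the vessels of the cortex. A 532 nm laser of 250 mW and 1.5 mm width was applied for 5 minutes after 100 mg/kg of an intravenous agent that the labels do not name. Saline or PLEA (100 µL), an abbreviation the labels leave unexplained, entered the tail vein 2 hours after the stroke. Tissue described as infarcted cortex was profiled at day 3, without an unlesioned group among the libraries analysed here. Nothing in the labels ties each library to a separate animal, so the p-values reflect sample-to-sample spread that may be technical.

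As background, a functional receptor needs the obligatory subunit GluN1, made from Grin1, which binds the co-agonist glycine or D-serine. GluN2 subunits, made from Grin2a to Grin2d, bind glutamate and set how long the channel stays open and how strongly magnesium blocks it. GluN3 subunits, made from Grin3a and Grin3b, bind glycine and give receptors that pass less calcium. In forebrain, Grin2b is high early in life and Grin2a joins it as synapses mature. Too much calcium entry through these receptors is a known route of neuronal death in ischaemia.

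No subunit gene passed the test for a difference between PLEA and saline, which does not show that their levels were equal. Among 17584 genes tested with edgeR's quasi-likelihood test, 0% were called higher and 0% lower at an adjusted p of 0.05, so 0 of 7 subunit genes is the background rate. Limma voom also called 0 of the 7, DESeq2 called 0 of the 6 to which it gave an adjusted p (Grin3b had none), and in edgeR 0 of 7 had an unadjusted p under 0.05, a level that 2.28% of tested genes reached as higher and 3.58% as lower. Of the 7 log2 fold changes 3 were positive and 4 negative, with a median of -0.0032, while 49% of all tested genes were positive and their median was -0.0051. Grin2a, Grin1 and Grin2b had the smallest standard errors of the 7, and Grin2d and Grin3b the largest. CPM below is the number of reads of a gene per 1000000 counted reads, with library sizes scaled by edgeR's TMM factors.

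**Figure D1:**
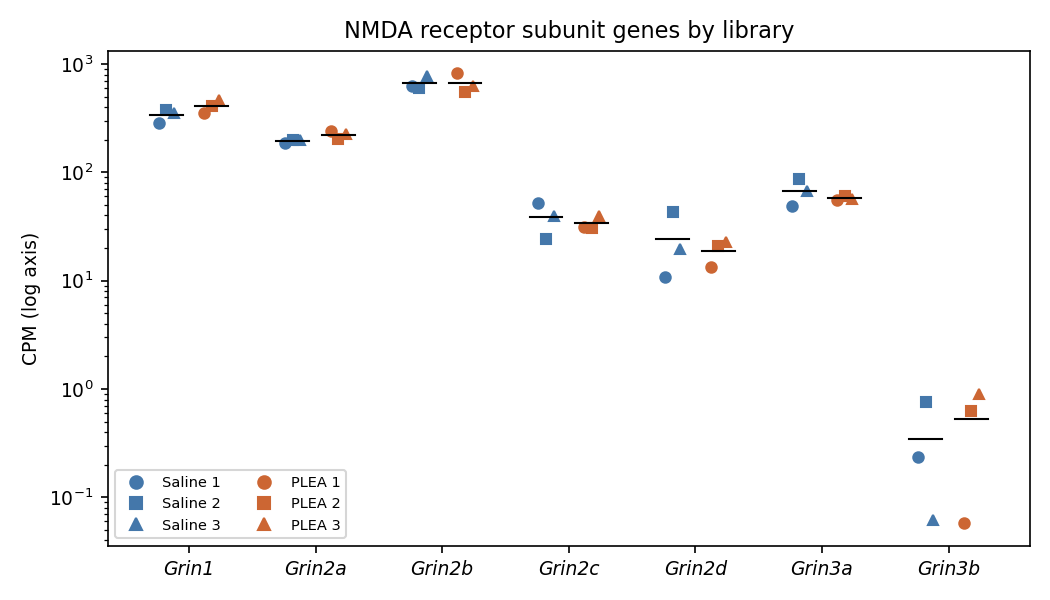
CPM of the 7 subunit genes on a log axis, 1 point per library with a symbol shape for each replicate number, and a bar at each group's mean. Grin2b, Grin1 and Grin2a lie above the rest, Grin2d and Grin3a are high in saline replicate 2, and Grin3b lies below 1 CPM in every library.

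Grin1, the obligatory subunit, had 287, 379 and 350 CPM across saline replicates 1 to 3, and 353, 408 and 462 CPM across PLEA replicates 1 to 3. Saline replicate 1 was the lowest library and PLEA replicate 3 the highest, and the groups overlapped. Means were 339 ± 47.3 CPM with saline and 408 ± 54.8 CPM with PLEA (SD, n = 3 each), for a log2 fold change of 0.27 (SE 0.16, edgeR adjusted p = 0.825). The 95% interval ran from 0.939-fold to 1.54-fold. In the deposited table Grin1 (ENSMUSG00000026959) spans bases 25181193 to 25209199 of chromosome 2 on the minus strand. Its span overlaps the opposite-strand noncoding gene Grin1os over 7706 bases.

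Grin1os had 201 to 406 counts per library, 3.07% to 6.37% of the Grin1 count, and it is named here after its values were seen. It averaged 15.2 ± 3.35 CPM with saline and 21.4 ± 1.59 CPM with PLEA (SD, n = 3 each), and the groups did not overlap. The log2 fold change was 0.49 (SE 0.18, edgeR unadjusted p = 0.0276, edgeR adjusted p = 0.818). Of all tested genes, 2.28% were higher at an unadjusted p under 0.05, and 5.16% were higher without overlap. The strand setting of the counting is not given in the sources used here, so reads of the 2 genes cannot be told apart where they overlap.

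Grin2a, the GluN2 subunit of mature forebrain synapses, was the member that varied least between libraries. It had 188, 200 and 199 CPM across saline replicates 1 to 3, and 241, 203 and 224 CPM across PLEA replicates 1 to 3. All 3 PLEA libraries lay above all 3 saline libraries. The closest values were 199.5 CPM with saline (replicate 2) and 203.5 CPM with PLEA (replicate 2). It was the only member of 7 whose groups did not overlap, a state found as higher in PLEA in 5.16% of tested genes and as lower in 5.54%. Means were 196 ± 6.85 CPM with saline and 223 ± 19 CPM with PLEA (SD, n = 3 each), for a log2 fold change of 0.19 (SE 0.11, edgeR adjusted p = 0.829) with an interval from 0.95-fold to 1.37-fold. Grin2a (ENSMUSG00000059003) spans bases 9385762 to 9813424 of chromosome 16, with 0 overlapping genes in the table.

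Grin2b, which carries the long-lasting, calcium-permeable receptor currents of young neurons, had the highest CPM of the family. It had 629, 607 and 769 CPM in saline and 822, 551 and 627 CPM in PLEA. PLEA supplied both its highest library (replicate 1) and its lowest (replicate 2). Means were 668 ± 87.9 CPM (SD, n = 3) and 667 ± 140 CPM (SD, n = 3), with a log2 fold change of -0.0032 (SE 0.18, edgeR adjusted p = 0.998) and an interval from 0.749-fold to 1.33-fold. Grin2b (ENSMUSG00000030209) spans bases 135690231 to 136150509 of chromosome 6, and none of its 4 overlapping genes had more than 18 counts in a library.

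Grin2c, known for its expression in cerebellar granule cells and in astrocytes, had 52, 24 and 39.4 CPM in saline and 31.4, 30.5 and 39.4 CPM in PLEA. Saline replicate 1 was the highest library and saline replicate 2 the lowest, so the 3 PLEA libraries fell within the saline range. The saline mean was 38.5 ± 14 CPM and the PLEA mean 33.8 ± 4.9 CPM (SD, n = 3 each), for a log2 fold change of -0.19 (SE 0.26, edgeR adjusted p = 0.907) with an interval from 0.584-fold to 1.32-fold. Without saline replicate 1 its log2 fold change was 0.10, and without saline replicate 2 it was -0.44 (unadjusted p = 0.037, edgeR adjusted p = 0.714). In the latter fit 829 of 18164 tested genes were lower at an unadjusted p under 0.05. Grin2c (ENSMUSG00000020734) spans bases 115139995 to 115158069 of chromosome 11.

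Grin2d, found in adults mainly in interneurons, diencephalon and brainstem, had 10.9, 42.9 and 19.6 CPM in saline and 13.5, 20.8 and 22.6 CPM in PLEA. Saline replicate 2 held the highest value and saline replicate 1 the lowest, a 3.93-fold range inside a single group, against 1.68-fold among PLEA libraries. The saline mean was 24.5 ± 16.5 CPM and the PLEA mean 18.9 ± 4.83 CPM (SD, n = 3 each), for a log2 fold change of -0.37 (SE 0.44, edgeR adjusted p = 0.892). Its interval, from 0.385-fold to 1.56-fold, holds a wider range of fold changes compatible with the data than those of Grin1, Grin2a, Grin2b, Grin2c or Grin3a. Without saline replicate 2 the log2 fold change was 0.31 and without saline replicate 1 it was -0.72. Grin2d (ENSMUSG00000002771) spans bases 45481307 to 45527802 of chromosome 7 and overlaps the opposite-strand gene Kdelr1 over 5607 bases. Kdelr1, a receptor that returns proteins to the endoplasmic reticulum, had 774 to 848 counts per library, above the 186 to 742 of Grin2d.

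Grin3a, the GluN3 subunit of developing forebrain, had 48.8, 86 and 66.7 CPM in saline and 55.7, 60.1 and 56.7 CPM in PLEA. Saline replicate 2 was again the highest and saline replicate 1 the lowest, while the PLEA libraries lay close together. The saline mean was 67.1 ± 18.6 CPM and the PLEA mean 57.5 ± 2.31 CPM (SD, n = 3 each), for a log2 fold change of -0.22 (SE 0.19, edgeR adjusted p = 0.86) with an interval from 0.632-fold to 1.16-fold. Without saline replicate 2 it was -0.0077, and without saline replicate 1 it was -0.40 (unadjusted p = 0.0245, edgeR adjusted p = 0.827). In the latter fit 598 of 18146 tested genes were lower at an unadjusted p under 0.05. Grin3a (ENSMUSG00000039579) spans bases 49661611 to 49845744 of chromosome 4.

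Grin3b, known mainly from motor neurons, was close to the limit of detection, with 4, 13 and 1 counts in saline and 1, 11 and 16 counts in PLEA. It passed the expression filter through saline replicate 2 and PLEA replicates 2 and 3. Its log2 fold change was 0.57 (SE 0.93, edgeR adjusted p = 0.924), so neither a rise nor a fall was detected. At these low counts the interval ran from 0.339-fold to 6.51-fold. Its span (ENSMUSG00000035745, chromosome 10, bases 79806549 to 79813024) overlaps 2243 bases of the opposite-strand gene Tmem259, which had 1100 to 1527 counts per library.

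**Figure D2:**
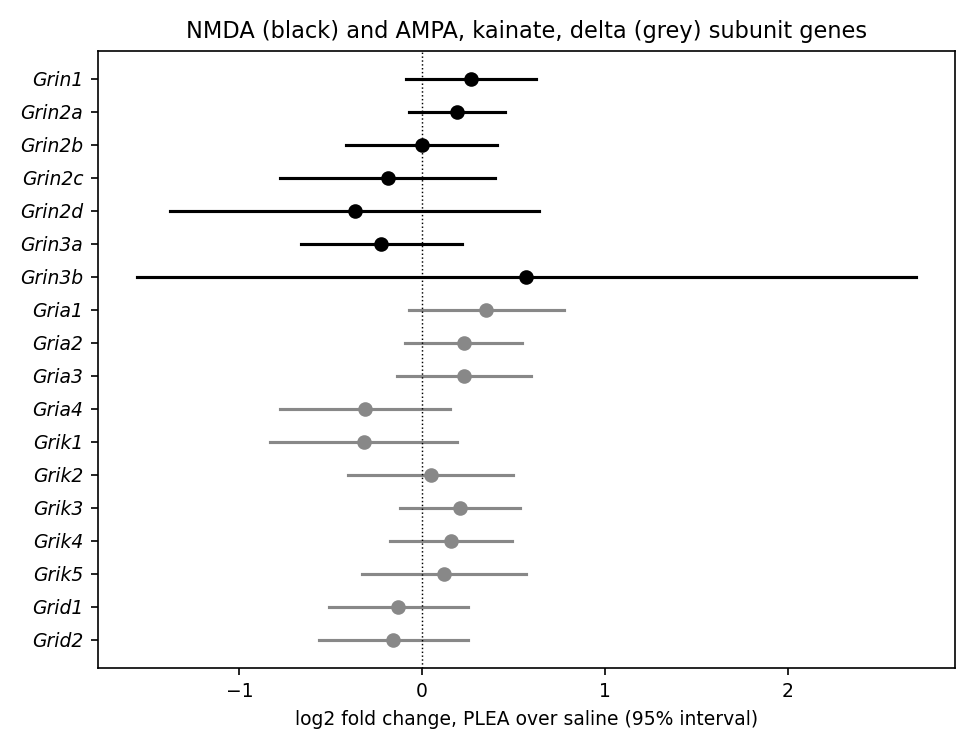
Log2 fold change, PLEA over saline, with its 95% interval from edgeR for the 7 NMDA subunit genes (black) and 11 AMPA, kainate and delta subunit genes (grey). The interval of each of the 18 genes includes 0, and those of Grin2d and Grin3b are the widest of the 7.

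To compare levels between genes, CPM was divided by the gene length in the deposited table, in kilobases. On that scale Grin1 stood at 38.5 CPM per kb over the 6 libraries, Grin2b at 26.9, Grin2a at 11.7, Grin2c at 7.17, Grin3a at 5.08, Grin2d at 3.26 and Grin3b at 0.133. Grin1 exceeded Grin2b in 6 of 6 libraries, but their ranges over libraries overlapped (29.5 to 47.6 and 22.2 to 33.1 CPM per kb). Grin2c and Grin3a, and Grin3a and Grin2d, also overlapped, whereas Grin2b lay above Grin2a, Grin2a above Grin2c and Grin2d above Grin3b without overlap.

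Part of this order depends on the length used. The deposited length of Grin2b is 24842 bases, while its shortest GENCODE M21 transcript with the full reading frame has 7484 bases. With such transcript lengths, chosen after seeing the data, the log2 ratio of Grin1 to Grin2b moved from 0.52 ± 0.37 (SD, n = 6) to -0.033 ± 0.37 (SD, n = 6), and Grin1 was the higher in 3 of 6 libraries.

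Among the glutamate-binding GluN2 genes, Grin2b held 54.6% ± 3.45 (SD, n = 3) of the summed CPM per kb in saline and 54.6% ± 4.96 (SD, n = 3) in PLEA. The share of Grin2a was 21.9%, 23.8% and 21% across saline replicates 1 to 3, and 24.6%, 26.6% and 25.5% across PLEA replicates 1 to 3. Grin2c and Grin2d together filled the rest in unequal parts. Grin2c ranged from 10.2% in saline replicate 2 to 21.6% in saline replicate 1, and Grin2d from 3.43% in saline replicate 1 to 13.8% in saline replicate 2. The 2 extremes of both genes were thus saline libraries, in opposite order. With transcript lengths the 6-library mean shares were 59.5% for Grin2b, 32% for Grin2a, 5.7% for Grin2c and 2.84% for Grin2d. The Grin2a transcript used has 4395 bases, 4392 of them reading frame, whereas that of Grin2b has 7484 with 4446 of reading frame. The Grin2a length thus leaves out untranslated parts, and its share on this scale may be too high.

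**Figure D3:**
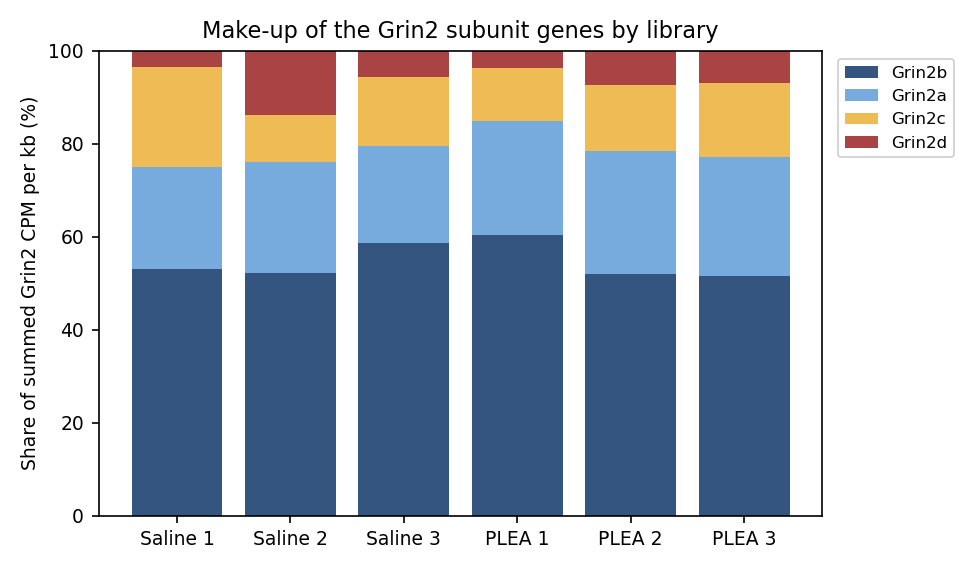
Share of each GluN2 gene in the summed Grin2 CPM per kb (deposited gene lengths, linear axis from 0), 1 bar per library. Grin2b makes up 51.6% to 60.4% in every library, and the Grin2d part is largest in saline replicate 2.

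Ratios of 2 subunits within a library do not depend on library scaling, and 4 were compared by an exact two-sided permutation test, whose smallest possible p with 3 against 3 libraries is 0.1. The ratio of Grin3a to Grin1 was 0.134, 0.179 and 0.15 across saline replicates 1 to 3, and 0.125, 0.116 and 0.097 across PLEA replicates 1 to 3, per kb. All 3 PLEA libraries lay below all 3 saline libraries, by a log2 difference of -0.45 (group SDs 0.21 and 0.19, n = 3 each, exact permutation p = 0.1, 0.4 adjusted over the 4 ratios). The test cannot reach 0.05 in this design, and the difference combines a higher mean of Grin1 and a lower mean of Grin3a in PLEA, neither of which passed on its own.

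The ratio of Grin2a to Grin2b, which rises as forebrain synapses mature, had a log2 difference of 0.20 between PLEA and saline (group SDs 0.18 and 0.17, n = 3 each, exact permutation p = 0.3, adjusted 0.6). For Grin2c to Grin2b the difference was -0.11 and for Grin2d to Grin2b -0.16, with an exact permutation p of 0.9 for each (adjusted 0.9). Groups overlapped for these 3 ratios.

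The libraries also differed in markers of cell types and neighbouring regions. Of 6 thalamic markers, all detected, 4 were highest in saline replicate 2, and their summed level was 555 CPM there against 148 to 186 CPM in the other 5 libraries. All 9 striatal markers were lowest in saline replicate 2, with a sum of 240 CPM against 968 to 2283 CPM elsewhere. Of 10 oligodendrocyte-lineage markers 8 were highest in that library, with a sum of 5602 CPM against 2911 to 4028 CPM elsewhere. Of 7 hippocampal markers 5 were highest there, although their sum was lowest there, at 141 CPM against 169 to 331 CPM. The summed inhibitory-neuron markers stood at 1525 CPM in saline replicate 2, below the 1825 CPM of saline replicate 3. Their sum was lowest in saline replicate 1, at 928 CPM against 1323 to 1825 CPM elsewhere. That library also had the lowest Grin2d and Grin3a. The thalamic sum was lowest in saline replicate 3, at 148 CPM, and 4 of the 6 thalamic markers were lowest in PLEA replicate 1. Saline replicate 2 was also the library with the highest Grin2d and Grin3a and the lowest Grin2c. Of 10 astrocyte markers, 9 were highest in saline replicate 1, the library with the highest Grin2c. So were 9 of 10 endothelial and mural markers. At the low end they differed: 8 of the 10 astrocyte markers were lowest in PLEA replicate 2, and Grin2c in saline replicate 2. The astrocyte sum was 4595 CPM in saline replicate 2 and 3524 CPM in PLEA replicate 2. It was 4595 to 7435 CPM in saline and 3524 to 4756 CPM in PLEA. The log2 fold changes of all 10 astrocyte markers were negative, with a median of -0.54. At an unadjusted p under 0.05, 5 of them were lower, beside 3.58% of all tested genes.

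Of 12 pan-neuronal markers, all detected, the sum was 8095 to 9575 CPM in saline and 7664 to 9450 CPM in PLEA. Log2 fold changes were positive for 2 of these 12 markers, with a median of -0.12. They were positive for 9 of 9 striatal markers (median 0.51) and for 1 of 10 oligodendrocyte-lineage markers (median -0.21). In these lists 0 markers had an unadjusted p under 0.05 in edgeR. Positive too were 6 of 10 excitatory and 5 of 10 inhibitory markers. Of the excitatory markers 1 was lower at an unadjusted p under 0.05 in edgeR, and of the inhibitory markers 0 passed. Of 6 thalamic markers 2 were positive, with a median of -1.07, and 1 was higher and 1 lower at that level. Of all tested genes 2.28% were higher and 3.58% lower at that level. The excitatory cortical markers were all detected as well, with a summed level of 1463 to 1997 CPM (saline) and 1499 to 2405 CPM (PLEA). Of the 7 cerebellar granule cell markers, all with some counts, Gabra6 and Fat2 were under 1 CPM in every library, and the 7 summed to 47.5 to 87.5 CPM (saline) and 75.9 to 110 CPM (PLEA). All 10 markers of microglia and macrophages were highest in saline replicate 1, and all 10 had negative log2 fold changes, with a median of -0.74, of which 2 passed an unadjusted p of 0.05. Of 10 endothelial and mural markers, likewise all negative, with a median of -0.41, 4 were lower at that level. Of 8 meningeal markers 7 were lower in PLEA at an unadjusted p under 0.05, with sums of 94.3 to 120 CPM (saline) and 37.7 to 50.6 CPM (PLEA). Lower at that level were 3.58% of all tested genes, and the marker lists were chosen with earlier results of these data known. Choroid plexus and ependymal markers summed to 300 CPM in PLEA replicate 3 and to at most 18.3 CPM elsewhere. The part of these markers in the subunit values was not tested beyond fits with an added term. That term was the mean log2 CPM of the tested markers of a list, not the sums given above. With the pan-neuronal level as a covariate, Grin1 had a log2 fold change of 0.32 (edgeR adjusted p = 0.95) and Grin2d 0.25 (edgeR adjusted p = 0.963). With the astrocyte level as a covariate, added after seeing the data, Grin1 had 0.069 and Grin2d -1.09 (unadjusted p = 0.745 and 0.0649, neither called by edgeR). All 10 astrocyte markers had lower fitted levels in PLEA, so this fit separates the astrocyte level from treatment poorly. The SE of Grin1 was 0.20 with this term and 0.16 without it. In bulk tissue, fewer cells of a type and less RNA per cell cannot be told apart.

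**Figure D4:**
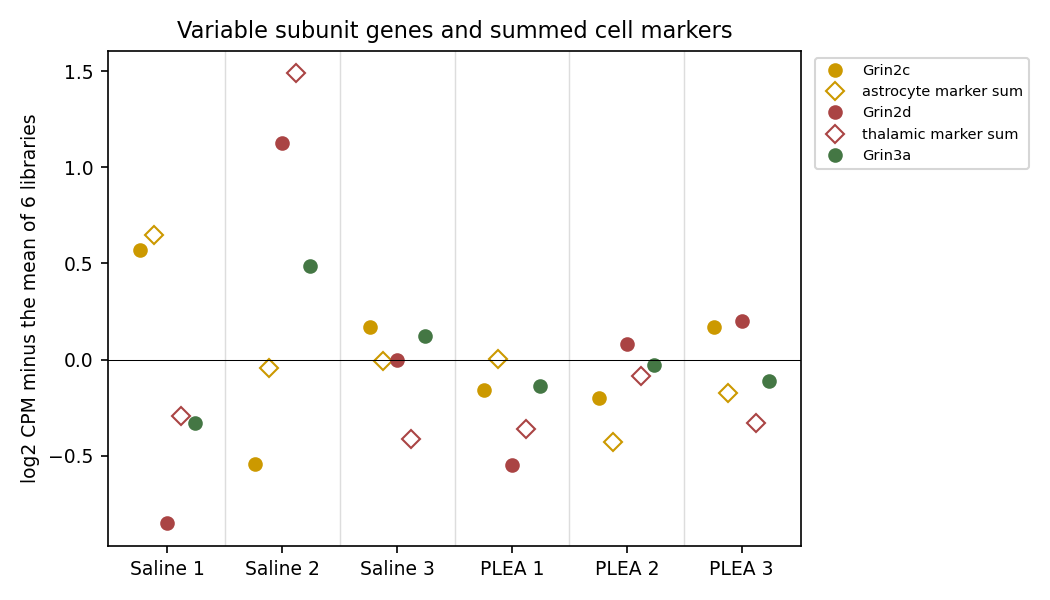
Log2 CPM of Grin2c, Grin2d and Grin3a (filled circles) and of the summed astrocyte and thalamic markers (open diamonds), each minus its mean over the 6 libraries. Grin2d, Grin3a and the thalamic sum are highest in saline replicate 2, and Grin2c and the astrocyte sum in saline replicate 1. The astrocyte sum is lowest in PLEA replicate 2, but Grin2c in saline replicate 2. The thalamic sum is lowest in saline replicate 3, but Grin2d and Grin3a in saline replicate 1.

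The promoters of Grin2c and Grin2d are shown because these genes varied most between libraries among the members above 1 CPM, with their extremes in the same 2 saline libraries. Each runs from 250 bases before to 50 after the annotated start (RefSeq, GRCm38.p6), read 5′ to 3′ on the gene's own strand, which is minus for both. The windows are chr11:115267194-115267493 for Grin2c and chr7:45866632-45866931 for Grin2d, and 4 of the 7 members had an entry. Capitals mark GGGCGG, the core of the GC box bound by Sp1-family factors, searched on both strands.
Grin2c: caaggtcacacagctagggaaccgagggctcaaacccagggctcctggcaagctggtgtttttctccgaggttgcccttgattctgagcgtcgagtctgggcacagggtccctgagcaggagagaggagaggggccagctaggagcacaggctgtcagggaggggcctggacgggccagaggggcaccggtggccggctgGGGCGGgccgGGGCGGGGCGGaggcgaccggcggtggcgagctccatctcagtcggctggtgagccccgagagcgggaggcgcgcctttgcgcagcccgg
Grin2d: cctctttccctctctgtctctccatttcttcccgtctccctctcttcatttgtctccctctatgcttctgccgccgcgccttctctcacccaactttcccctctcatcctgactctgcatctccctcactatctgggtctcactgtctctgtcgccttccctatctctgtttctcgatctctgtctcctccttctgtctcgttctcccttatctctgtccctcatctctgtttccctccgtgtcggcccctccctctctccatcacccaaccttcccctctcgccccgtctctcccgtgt

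The Grin2c window held 3 matches, of which the last pair shares a base, and the Grin2d window held 0. Of 32851 promoter windows of the same length, 35.7% held at least 1 match. The Grin2c window had 22 CpG dinucleotides and 70% G or C, and the Grin2d window 12 CpG dinucleotides and 56% G or C, beside a median of 7 CpG dinucleotides over all windows. These letter matches are a description and not a measured binding site.

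The related ionotropic receptor genes gave a similar picture. Of 11 AMPA, kainate and delta subunit genes tested, 0 were called and 0 had an unadjusted p under 0.05 in edgeR. Their median log2 fold change was 0.12, with 7 positive and 4 negative values. Gria1, a main AMPA subunit, stood at 0.35 on the log2 scale (SE 0.19) and Gria4, an AMPA subunit of interneurons and thalamus, -0.31 (SE 0.20). Gria2, which makes AMPA receptors calcium-impermeable, was the 1 gene of the 11 without overlap between groups (938 ± 77.6 CPM in saline and 1097 ± 107 CPM in PLEA, SD, n = 3 each), beside 5.16% of tested genes without overlap and higher and 5.54% without overlap and lower. Gria4 and the kainate subunit gene Grik1 were, like Grin2d and Grin3a, highest in saline replicate 2, at 205 and 29.4 CPM.

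Genes that supply the co-agonists or clear glutamate centred on a median log2 difference of -0.19 across the 16 that were tested, with 5 positive and 11 negative. In edgeR 0 were called, and 1 was lower at an unadjusted p under 0.05, beside 3.58% of all tested genes. That gene, Phgdh, the first enzyme of serine synthesis, had 48.3, 35.2 and 38.1 CPM in saline and 34.8, 23.4 and 28.5 CPM in PLEA (log2 fold change -0.49, SE 0.18, edgeR adjusted p = 0.818). Slc7a10, a transporter of D-serine and other small amino acids, had -0.49 (SE 0.22), and the glycine transporter gene Slc6a9 had -0.51 (SE 0.24). Slc6a9 had 25.4, 49.9 and 30 CPM in saline and 24.2, 22.4 and 27.2 CPM in PLEA. Its groups overlapped, and its highest library was saline replicate 2. The astrocyte, microglial and vascular markers given above were also lower on average in PLEA, and their part in these values was not tested.

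Scaffold and trafficking genes had a median of 0.01 over 25 tested genes, 13 positive and 12 negative. EdgeR called 0 of them, and 1 was higher at an unadjusted p under 0.05, beside 2.28% of all tested genes. That gene, Kif17, the kinesin motor that carries GluN2B-containing vesicles in dendrites, had 26.6, 20 and 33.1 CPM in saline and 37.5, 47.9 and 45.1 CPM in PLEA. The groups did not overlap, as in 2 of the 25 genes, each higher in PLEA. Of all tested genes, 5.16% were without overlap and higher and 5.54% without overlap and lower. The log2 fold change of Kif17, which had the smallest p of the list, was 0.71 (SE 0.19, edgeR adjusted p = 0.818). Dlg3, a scaffold of the PSD-95 family, had a log2 difference of 0.26 (SE 0.15).

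Kinases and phosphatases that act on the receptor had a median of 0.10 over 20 tested genes, 16 positive and 4 negative, with 0 called and 0 at an unadjusted p under 0.05 in edgeR. Ptpn5, the phosphatase STEP that lowers surface NMDA receptors, had a log2 fold change of 0.41 (SE 0.19). Camk2d had -0.24 (SE 0.14), and Ptk2b, a calcium-activated tyrosine kinase, 0.34 (SE 0.29).

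Calcium-signalling and excitotoxic effector genes had a median of -0.05 over 21 tested genes, 8 positive and 13 negative. In edgeR 0 were called, and 1 was higher at an unadjusted p under 0.05, beside 2.28% of all tested genes. That gene, Rasd1, a small G protein that acts with neuronal nitric oxide synthase, had 5.69, 6.3 and 8.25 CPM in saline and 7.57, 17.7 and 12.6 CPM in PLEA (log2 fold change 0.90, SE 0.31, edgeR adjusted p = 0.818). Nos1ap, an adaptor of the same synthase, had 0.27 (SE 0.12), and Dapk1, a death-associated kinase reported to bind GluN2B, had 0.38 (SE 0.20).

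Likeness of pattern was measured by Pearson's r of log2 CPM over the 6 libraries, against the 10988 genes whose mean log2 CPM was 3 or more. The genes most like Grin1 were Hcfc1 (r = 0.991), Inafm1 (r = 0.991) and Zfp598 (r = 0.99). Those most like Grin2a were Sap18b (r = 0.988), Dpp9 (r = 0.985) and Ptpn3 (r = 0.981). For Grin2b they were Bdh1 (r = 0.992), Stk38l (r = 0.991) and Gpr26 (r = 0.991). With 6 libraries, 40 genes reached an r of 0.95 or more for Grin1, 13 for Grin2a and 26 for Grin2b, so these names describe the libraries and carry no test.

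**Figure D5:**
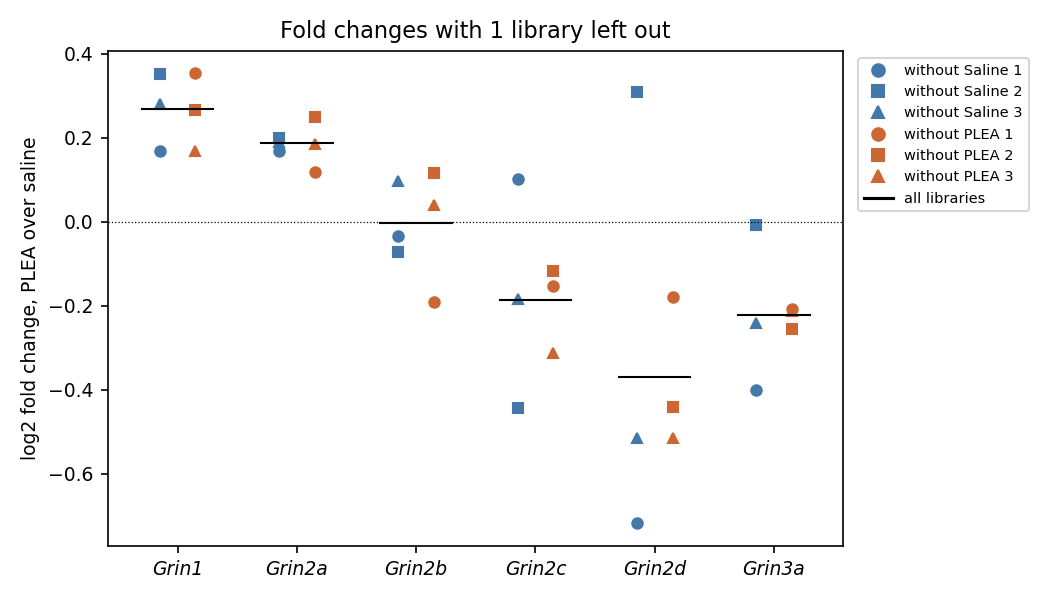
Log2 fold change, PLEA over saline, of 6 subunit genes with each library left out in turn (points) and with all libraries (black bars). Grin1 and Grin2a stay above 0 in all 6 refits, while Grin2b, Grin2c and Grin2d fall on both sides of 0.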

How the data were processed

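The authors deposited read counts for each gene as whole numbers without normalization, together with a gene length in bases. Per the submitters' processing notes the builds were GRCm38 and mm10. The gene positions in the table differ from those of GRCm38 annotation for members such as Grin1, so they are printed as deposited with no build. The sources used here do not give the aligner, the counting tool or its strandedness. Libraries were SMARTer mRNA preparations, per the labels' protocols, and were grouped by title. Totals ran from 16810448 to 17516434 counts, and TMM factors from 0.968 to 1.03. Within groups no 2 libraries agreed within sampling noise (chi-square per degree of freedom 13.9 to 53.2).

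Group was the single term of a quasi-likelihood model in edgeR 4.0.16 (R 4.3.3) with filterByExpr and TMM, and p-values were adjusted by Benjamini-Hochberg over 17584 genes at 0.05. Each standard error is the size of the log2 fold change over the root of its F statistic. DESeq2 1.42.0 and limma 3.58.1 voom were alternatives. The members and gene lists were chosen with earlier results of these data known. All 7 members are described. From each pathway and related-receptor list the 3 genes with the smallest p are named, apart from 1 scaffold gene that is not reported here, and Grik1 and Grin1os were named after their values were seen.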

Additional observations from a re-analysis of the deposited data

How the results depend on the processing

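None of the 7 subunit genes was called under any of the 16 alternatives, but Grin3b was not tested under a filter of at least 1 CPM in 3 libraries and had no adjusted p in DESeq2. The smallest adjusted p of a member over all of them was 0.55. With the astrocyte covariate Grin3a had an unadjusted edgeR p of 0.0452 (log2 fold change -0.52). In that fit 417 of 17584 tested genes were lower at an unadjusted p under 0.05. Over all genes DESeq2 called 2 higher and 37 lower, edgeR without a filter 7 and 31, and the astrocyte covariate, an alternative added after seeing the data, 0 and 1; what causes these counts was not tested. With single libraries left out, edgeR called 0 to 0 higher and 0 to 1 lower, the 1 without saline replicate 1. Of 111 refitted fold changes of members, 12 changed sign. Grin2b was at 0.0097 with upper-quartile factors, 0.033 with the pan-neuronal and 0.055 with the astrocyte covariate. Grin2c was at 0.17 with the astrocyte covariate, and Grin2d at 0.25 with the pan-neuronal and 0.094 with the striatal covariate. Leaving out 1 library gave -0.19 to 0.12 for Grin2b, -0.44 to 0.10 for Grin2c, -0.72 to 0.31 for Grin2d and -0.042 to 1.76 for Grin3b, and 0.17 to 0.35 for Grin1, 0.12 to 0.25 for Grin2a and -0.40 to -0.0077 for Grin3a. The ratio of Grin2c to Grin2b ran from -0.35 to 0.18 and that of Grin2d to Grin2b from -0.60 to 0.42, while Grin3a to Grin1 ran from -0.55 to -0.34 and Grin2a to Grin2b from 0.11 to 0.30. With transcript lengths the log2 ratio of Grin1 to Grin2b was -0.033.

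Same-numbered libraries deviated from their group means with correlations of 0.373, 0.173 and -0.0176. Differently numbered libraries had correlations from -0.358 to 0.23. These few values cannot settle whether the numbers mark pairs, and the main model used no pairing. With the replicate block edgeR called 0 genes higher and 0 lower, against 475 and 892 at an unadjusted p under 0.05, and Grin1 was at 0.27, Grin2a at 0.19, Grin2b at -0.016, Grin2c at -0.13, Grin2d at -0.19, Grin3a at -0.19 and Grin3b at 0.54. At the lowest counts, 186 for Grin2d and 1 for Grin3b, counting error alone is 7.33% and 100.0%.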
